A study of Mus musculus with 9 samples.

Results

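The ovaries described here all carried 1 copy of Foxl2 with the C134W change (FOXL2 WT/C134W). They gave 6 of the 9 ovary RNA-seq libraries of the series, and were chosen by the genotype label alone. The 6 C134W libraries comprised 3 labelled hyperplasia and 3 labelled granulosa cell tumour, and they were set against 3 libraries of FOXL2 WT/WT mice labelled wild type. The comparison takes the mean of hyperplasia and tumour minus wild type, so that each lesion class has the same weight, and asks which genes differ in both classes alike. The labels give neither age nor stage of the oestrous cycle, neither the strain nor how the allele was made, and they do not say that each library came from a separate animal. The titles of hyperplasia library 3 and tumour library 3 share a stem, and the labels do not say whether both came from 1 animal. If they did, the 6 C134W libraries are not 6 independent replicates, although the main fit and each SD treat them so. The p-values measure the spread between libraries, which may in part be technical.

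FOXL2, a transcription factor of the forkhead family, keeps granulosa cells in their female identity. Granulosa cells are the somatic cells of the follicle and nourish the oocyte inside it. They make anti-Müllerian hormone, inhibins and, with theca cells, oestrogen, and after ovulation they become the progesterone-producing cells of the corpus luteum. In humans, the C134W missense change in FOXL2 is the defining mutation of adult-type granulosa cell tumours.

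The position in the genotype label is not a cysteine position of the mouse Foxl2 coding sequence in the GENCODE M21 annotation used here, which has 375 codons before the stop. The codon with the label's number is TTC there, a phenylalanine codon, and the nearest cysteine codon is codon 130. The 2 stretches below, on the plus strand of GRCm38, are shown because they hold those codons, which are in capitals. They lie at chr9:98956033-98956065 and chr9:98956045-98956077.
Foxl2 codon 130: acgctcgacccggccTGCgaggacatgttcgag
Foxl2 codon of the label's number: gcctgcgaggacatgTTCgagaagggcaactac
The label therefore does not follow the numbering of this mouse sequence, and gene counts cannot show which base was changed.

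Foxl2 itself (ENSMUSG00000050397, chromosome 9, 98955288 to 98958543) had 184, 129 and 339 CPM in the hyperplasia libraries and 268, 227 and 388 CPM in the tumour libraries, against 203, 146 and 178 CPM in the wild-type libraries. CPM stands for counts-per-million units, after TMM scaling (trimmed mean of M-values) between libraries. The groups overlapped: hyperplasia libraries 1 and 2 lay within or below the wild-type range, and the other 4 C134W libraries above it. The mean was 256 ± 96.4 CPM in C134W ovaries (SD, n = 6) and 176 ± 28.6 CPM in wild type (SD, n = 3). The log2 fold change was 0.53 (SE 0.32), which edgeR's quasi-likelihood test did not call (adjusted p = 0.576). A two-sided exact permutation test gave p = 0.25 for the difference in mean log2 CPM of 0.46, where the smallest possible p is 0.0119. Foxl2os, an antisense gene, overlaps Foxl2, and their reads may not be separated, because no strand setting is given for the counting.

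Libraries held 11661820 to 20890487 counts on genes, so that a floor of 3 counts stands for 0.144 to 0.293 CPM, and mitochondrial genes took 2.54% to 4.18%. Wild-type library 1 correlated with its own group at an r of 0.911 to 0.92 and tumour library 2 at 0.894 to 0.903 (log2 CPM across genes, which are not replicates), while other pairs within a group reached 0.973. Deviations of wild-type library 1 from the mean of all other libraries, C134W and wild type together, went with gene length (Spearman rho -0.59). By the same measure rho was -0.27 for tumour library 2 and 0.07 to 0.38 for the other libraries. The granulosa marker Inha, the inhibin alpha subunit, had 499 to 3020 CPM in the C134W libraries and 757 to 2210 CPM in wild type. Not every granulosa marker was present in each library. In tumour library 2, Fshr, the receptor for follicle-stimulating hormone, was at 0 CPM and Wt1, a transcription factor of granulosa and surface cells, at 2.54 CPM, whereas Fshr had 80.7 and 81.8 CPM in the other tumour libraries. Values without these 2 libraries stand beside some of the results that changed.

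Of 16213 genes tested in C134W against wild type, 2 passed an adjusted p of 0.05 by edgeR's quasi-likelihood test, which is 0.0123% of the genes. The adhesion gene Cdh13 was higher in C134W ovaries and the matrix gene Mfap4 was lower, and each had 6 C134W libraries on 1 side of all 3 wild-type libraries. Without adjustment, 1921 genes (11.8%) had a p under 0.05, of which 643 (3.97%) were higher and 1278 (7.88%) lower. The DESeq2 Wald test called 591 genes (3.65%) in the same comparison, 163 higher (1.01%) and 428 lower (2.64%), and both edgeR calls were among them. Taken alone against the same wild-type libraries, hyperplasia gave 0 calls (572 genes, 3.53%, at an unadjusted p under 0.05 and 19, 0.117%, by DESeq2) and tumours 259 (1.6%).

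Cdh13 (ENSMUSG00000031841) lies on the plus strand of chromosome 8, from 118283733 to 119324921 in GRCm38, and encodes T-cadherin, an atypical cadherin anchored to the membrane by glycosylphosphatidylinositol. It had 43.7, 30.6 and 31.6 CPM in the hyperplasia libraries and 21.1, 51.6 and 38.2 CPM in the tumour libraries, against 3.38, 3.77 and 2.53 CPM in the wild-type libraries. These values rest on 318 to 816 counts per C134W library and 44 to 68 per wild-type library. The lowest C134W library lay well above the highest wild-type library, and the hyperplasia libraries lay within the range of the tumour libraries. The mean was 36.1 ± 10.8 CPM in C134W ovaries (SD, n = 6) and 3.23 ± 0.634 CPM in wild type (SD, n = 3). The log2 fold change was 3.48 (SE 0.35, 95% interval 2.68 to 4.28, adjusted p = 0.0419, edgeR's quasi-likelihood test).

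Cdh13 differed from wild type by nearly the same amount in both lesion classes. The log2 fold change against wild type was 3.45 (SE 0.37) for hyperplasia and 3.51 (SE 0.37) for tumours. Tumour minus hyperplasia was 0.06 with a 95% interval of -0.69 to 0.82. Of all tested genes, Cdh13 was the 1 (0.00617%) that was called and also changed alike, defined as the same sign and a log2 fold change of at least 1 in both classes with less than 1 between them. On the length-normalised scale deposited by the authors, Cdh13 had 20.61, 14.29 and 13.99 TPM in hyperplasia and 11.33, 13.92 and 17.78 TPM in tumours, against 1.03, 3.84 and 1.18 TPM in wild type. The groups stayed apart on that scale too. The fold change was 2.53 to 3.62 (log2) over 17 alternative settings and left-out libraries. The call held in 9 of the 17 and in 3 of the 9 fits with a library left out (without hyperplasia library 1, tumour library 1 or tumour library 2). Without wild-type library 1 the adjusted p was 0.135 (edgeR), and without both wild-type library 1 and tumour library 2 it was 0.0837.

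Mfap4 (ENSMUSG00000042436) lies on the plus strand of chromosome 11, from 61485431 to 61488900, and encodes microfibril-associated protein 4, a glycoprotein of elastic fibres. It had 24.4, 16.0 and 18.2 CPM in the hyperplasia libraries and 7.02, 10 and 11.8 CPM in the tumour libraries, against 57.7, 49.5 and 55.2 CPM in the wild-type libraries. The wild-type libraries were close together, the hyperplasia libraries lay below them, and the tumour libraries lay below every hyperplasia library. The mean was 14.6 ± 6.26 CPM in C134W ovaries (SD, n = 6) and 54.1 ± 4.18 CPM in wild type (SD, n = 3). The log2 fold change was -1.98 (SE 0.21, 95% interval -2.46 to -1.5, adjusted p = 0.0419, edgeR's quasi-likelihood test).

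The lesion classes shared the direction for Mfap4 but not the size closely enough to meet the limit of 1 log2 unit. The log2 fold change was -1.47 (SE 0.26) in hyperplasia and -2.49 (SE 0.27) in tumours. Tumour minus hyperplasia was -1.02 (95% interval -1.6 to -0.44), just outside that limit, and after adjustment over all genes this difference was not called (edgeR adjusted p = 0.145). In TPM the values were 28.36, 18.87 and 19.93 in hyperplasia and 7.98, 6.58 and 13.00 in tumours, against 41.73, 58.41 and 63.38 in wild type. The fold change moved only between -2.07 and -1.86 (log2) over 17 alternatives, and the call held in 7 of them. It was lost without wild-type library 1 (edgeR adjusted p = 0.135) and without both libraries that stood apart (0.0944). The end of Mfap4 overlaps Mapk7 on the opposite strand in the annotation, so some reads may belong to that gene.

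**Figure D1:**
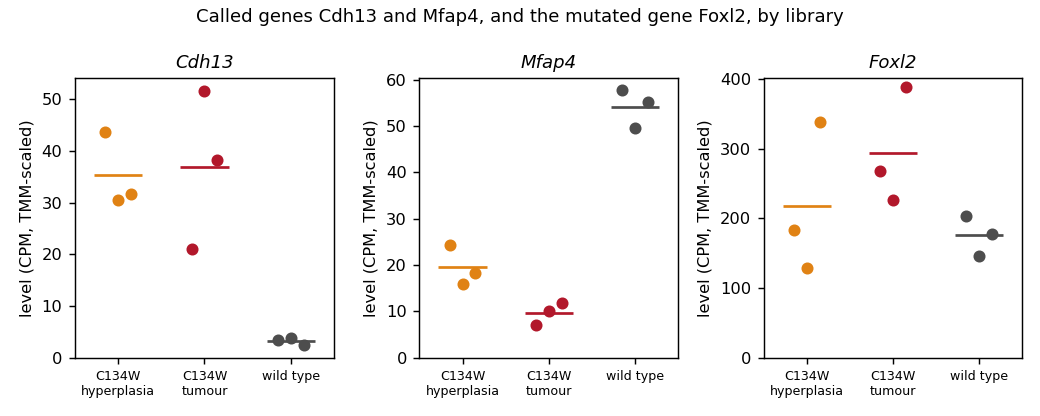
Level in CPM of Cdh13, Mfap4 and Foxl2 (y axes, linear) in each library of hyperplasia, tumour and wild type (x axes); points are libraries and bars are group means. Cdh13 was 21.1 to 51.6 CPM in the 6 C134W libraries and at most 3.77 CPM in wild type, Mfap4 at most 24.4 CPM against at least 49.5 CPM, and the groups overlapped for Foxl2.

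The genes just beyond the threshold were mostly lower in C134W ovaries, and are given as values because they were not called. Crabp2, which carries retinoic acid to its nuclear receptor, had 1.93, 1.96 and 0.623 CPM in hyperplasia and 0.265, 0.0975 and 0.336 CPM in tumours, against 26.2, 10 and 7.24 CPM in wild type (log2 fold change -4.58, edgeR adjusted p = 0.0609). Cyp2e1, a cytochrome P450, had 1.93, 2.97 and 2.01 CPM in hyperplasia and 0, 0 and 0.084 CPM in tumours, against 5.67, 13.1 and 4.6 CPM in wild type, with the same adjusted p. Neither overlapped between C134W and wild type, and in both the tumour libraries were lower than the hyperplasia libraries. Sema3g, a secreted semaphorin, had 19.1 to 43.8 CPM in hyperplasia and 9.8 to 13.5 CPM in tumours, against 71.6 to 116 CPM in wild type (log2 fold change -2.15, edgeR adjusted p = 0.0715). Clca3a1, of the chloride channel accessory family, was the highest-ranked uncalled gene on the other side, with 17.5 to 21.1 CPM in hyperplasia and 39.7 to 42.8 CPM in tumours, against 9.85 to 13.0 CPM in wild type.

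A small pooled p did not always mean that both classes differed from wild type. Lgals3, the sugar-binding galectin-3, had 125, 96.9 and 97.4 CPM in hyperplasia and 2.25, 7.02 and 5.54 CPM in tumours, against 83.0, 101 and 95.5 CPM in wild type. Its pooled log2 fold change of -2.03 (edgeR adjusted p = 0.0715) came from 0.19 in hyperplasia and -4.25 in tumours, and tumour minus hyperplasia was -4.44 (edgeR adjusted p = 0.011, in a comparison that called 30 genes, 0.185%, all lower in tumours). That comparison called 0 genes without tumour library 3, 0 without both libraries that stood apart, and 12 with a term for the shared title stem. The pooled contrast thus ranked Lgals3 beside genes that were low in both classes, although its hyperplasia and wild-type values overlapped.

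Across all tested genes, 701 (4.32%) had their 6 C134W libraries all above or all below the 3 wild-type libraries, 265 (1.63%) above and 436 (2.69%) below. Fewer libraries overlap less often by construction, and the count was 791 to 1602 with a library left out, highest without wild-type library 1, and 2135 without both libraries that stood apart. Of the 701, 121 (0.746%) also met every part of the definition of alike except the call, 47 (0.29%) higher and 74 (0.456%) lower. The median log2 fold change over all genes was -0.01. Genes that lay above were expressed at a median of 45.6 CPM and those below at 2.51 CPM, against 23 CPM over all genes. Their median lengths were 3082 and 1943 bases, against 2463 over all genes, and 92.8% and 89% were protein coding against 88.9%. Length is also what the deviations of wild-type library 1 followed, and its part in these sets was not tested.

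**Figure D2:**
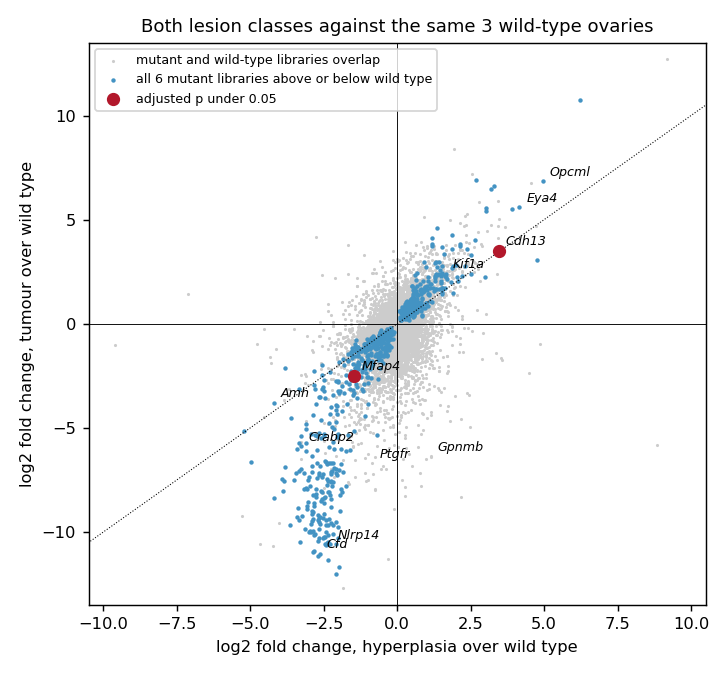
Log2 fold change of hyperplasia over wild type (x axis) and of tumour over wild type (y axis) for every tested gene, with the dotted line marking equal values and the same 3 wild-type libraries in both; folds of genes with no counts in tumours depend on the prior count. Cdh13 (3.45, 3.51) sits on the line, Mfap4 (-1.47, -2.49) below it, and most blue genes on the lower side lie far below the line.

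The leading genes of each direction, 12 higher and 12 lower, were picked after their values were seen, by unadjusted p among the 121, so they illustrate and support nothing. Apart from Cdh13 none of these 24 was called by edgeR (adjusted p 0.0715 to 0.118). On the higher side, Kif1a, a kinesin motor known from axonal vesicle transport, had 37.8, 25.9 and 45.1 CPM in hyperplasia and 55.3, 58.4 and 70.6 CPM in tumours, against 7.16, 10.9 and 16.6 CPM in wild type (log2 fold change 2.03, SE 0.31). Tspan18, a tetraspanin membrane protein, had 67.5 to 104 CPM in hyperplasia and 95 to 194 CPM in tumours, against 18.2 to 33.9 CPM in wild type (1.98, SE 0.32). Gpm6b, a membrane glycoprotein, had medians of 207 CPM in hyperplasia and 185 CPM in tumours, against 66.4 CPM in wild type. For Gpm6b the lesion classes were as close as for Cdh13, with log2 fold changes of 1.54 in hyperplasia and 1.52 in tumours. The 95% interval of that difference was -0.64 to 0.59. For Kif1a and Tspan18 tumours lay further from wild type, with 95% intervals of tumour minus hyperplasia of 0.03 to 1.5 and 0.15 to 1.68. Both intervals reach past the limit of 1 log2 unit, though neither difference was called (edgeR adjusted p = 0.34 and 0.284).

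Ddhd1, a phospholipase, had 40.2 to 96.2 CPM in hyperplasia and 77.9 to 219 CPM in tumours, against 21 to 32.5 CPM in wild type. Plcl2, a phospholipase C-like protein without catalytic activity, had 39.3 to 80.3 CPM in hyperplasia and 90.3 to 102 CPM in tumours, against 20.8 to 37.4 CPM in wild type, so its lowest C134W library was only just above wild type. Gpat3, which starts glycerolipid synthesis, had 7.23 to 15.6 CPM in hyperplasia and 12.7 to 27.6 CPM in tumours, against 3.88 to 4.94 CPM in wild type. Ccdc3, a secreted coiled-coil protein, was the most abundant of the 12, with 128 to 309 CPM in hyperplasia and 274 to 619 CPM in tumours, against 37.3 to 83.2 CPM in wild type (log2 fold change 2.41, SE 0.44). Rassf9, Chp2, Fam110c and Armh4 completed the set, with log2 fold changes of 1.92, 1.77, 1.52 and 1.42. For Chp2 and Fam110c the 95% intervals of tumour minus hyperplasia were positive throughout, at 0.14 to 1.85 and 0.04 to 1.52. Neither difference was called (edgeR adjusted p = 0.293 and 0.333).

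On the lower side, Ctsl, the lysosomal protease cathepsin L, was the most abundant of the lower genes, with 536 to 591 CPM in hyperplasia and 404 to 606 CPM in tumours, against 958 to 2300 CPM in wild type. Its log2 fold change of -1.42 became -0.87 without wild-type library 1, the library with 2300 CPM. Gja4 encodes a connexin of the gap junctions between oocyte and granulosa cell and of endothelium. It had 6.76 to 12 CPM in hyperplasia and 4.54 to 5.95 CPM in tumours, against 14.5 to 34.9 CPM in wild type. For Gja4 tumour minus hyperplasia was -0.94 (95% interval -1.85 to -0.04), which was not called (edgeR adjusted p = 0.338). Aspm, a mitotic spindle protein, had 9.11 to 17.5 CPM in hyperplasia and 12.2 to 17.1 CPM in tumours, against 22.2 to 41.3 CPM in wild type.

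1 leading lower gene rested on a single wild-type library. Cited1, a transcriptional co-activator, had 1.1 to 2.32 CPM in hyperplasia and 0.672 to 2.32 CPM in tumours, against 169, 4.3 and 5.23 CPM in wild type. Its log2 fold change was -5.17 with all libraries and -1.53 without wild-type library 1. Sel1l3, Dusp14, Sprn, Rab26os, Kcnh3 and Oas1c had log2 fold changes of -3.09, -1.91, -2.78, -1.69, -1.43 and -2.11. Oas1c has near copies in the genome, and its counts are uncertain for that reason.

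**Figure D3:**
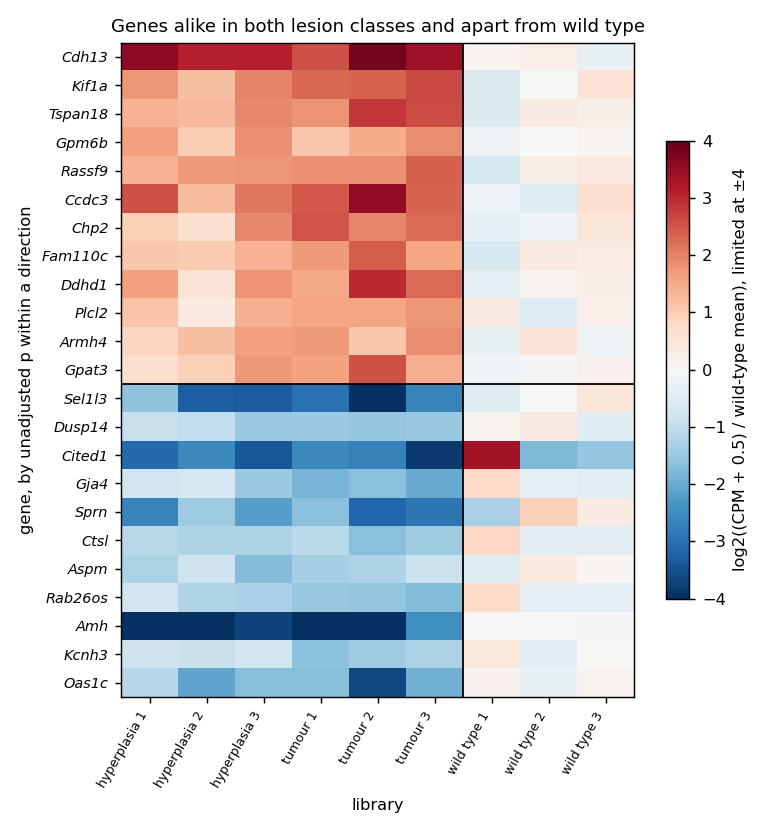
Log2 ratio of each library's CPM (plus 0.5) to the wild-type mean for 23 of the 24 leading genes (rows), with the 6 C134W libraries left of the 3 wild-type libraries; colours are limited at 4 log2 units on either side. Within each direction the C134W columns share a colour because the genes were chosen for that, and wild-type library 1 stands out for Cited1 with 169 CPM.

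Of the granulosa genes, the anti-Müllerian hormone gene was the 1 whose C134W libraries all lay below wild type, though it was not called. Amh (ENSMUSG00000035262, chromosome 10, 80805243 to 80807648) had 12.4, 6.59 and 16.3 CPM in hyperplasia and 7.81, 0.0975 and 39.4 CPM in tumours, against 222, 221 and 211 CPM in wild type. The wild-type libraries agreed closely with each other, while the tumour libraries ranged widely, with tumour library 2 under its floor of 0.293 CPM. The log2 fold change was -4 (SE 0.9, edgeR adjusted p = 0.107), -4.21 in hyperplasia and -3.79 in tumours, and DESeq2 gave no adjusted p for it. Over the alternatives with a value it stayed between -5.07 and -3.7 (log2), with adjusted p between 0.0173 and 0.435.

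The remaining granulosa genes did not share the pattern of Amh. Of 18 genes of granulosa identity, 0 were called by edgeR, and the median log2 fold change was 0.23, against -0.01 over all genes. At an unadjusted p under 0.05 (edgeR) 1 was lower and 2 were higher, against 7.88% and 3.97% of all genes. Amhr2, the receptor of anti-Müllerian hormone, had 100 to 342 CPM in hyperplasia and 225 to 476 CPM in tumours, against 99.3 to 132 CPM in wild type (log2 fold change 1.1, edgeR adjusted p = 0.365). Esr2, the oestrogen receptor of granulosa cells, had 44.6 to 106 CPM in hyperplasia and 163 to 231 CPM in tumours, against 41.1 to 81.5 CPM in wild type, and was the only member that DESeq2 called (1.01% of all genes were called higher). Inhba, a subunit of activin and inhibin, had 83.0 to 1230 CPM in hyperplasia and 14.4 to 141 CPM in tumours, against 121 to 1010 CPM in wild type, so its groups overlapped. Of 12 genes of Sertoli cells and testis determination, the male counterparts that FOXL2 is known to hold down in the mouse, 10 were tested. EdgeR and DESeq2 called 0 of them. Their median was 0.53, and 0.95 without wild-type library 1, with 6 positive and 4 negative fold changes. Cldn11 had the smallest adjusted p of the list and lay on the lower side (log2 fold change -1.2, edgeR adjusted p = 0.267). Sox9, the main driver of Sertoli fate, had 5.46 to 15.3 CPM in hyperplasia and 9.83 to 39.9 CPM in tumours, against 4.67 to 7.6 CPM in wild type (1.14, edgeR adjusted p = 0.426). Cst9 had 5.9, 5.3 and 6.3 CPM in hyperplasia library 3 and tumour libraries 1 and 3, and at most 0.149 CPM in every other library.

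Oocyte genes were the list with the lowest median. Of 26 listed genes 23 were tested, and 20 of them had all 6 C134W libraries below wild type, against 2.69% of all genes. By edgeR 0 were called (smallest adjusted p 0.0715), 20 had an unadjusted p under 0.05 on the lower side, against 7.88% of all genes, and DESeq2 called 20 lower, against 2.64%. The count filter could keep a member through the 3 wild-type libraries alone. A member kept that way is all but bound to come out lower, so these counts describe the list and support nothing. The median log2 fold change was -4.96, from -2.27 in hyperplasia and -7.41 in tumours. With the 8 tested genes that had no counts in tumours set at their floor, the medians became -4.67 and, in tumours, -6.81. The summed level of the list was 198, 60.6 and 39.4 CPM in hyperplasia and 39.8, 66.0 and 38.7 CPM in tumours, against 447, 342 and 431 CPM in wild type. In bulk ovary, fewer oocytes and less RNA per oocyte cannot be told apart.

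Among the factors that regulate oocyte genes, Lhx8, a LIM homeobox factor of early follicles, had 0.375, 0.217 and 0.0479 CPM in hyperplasia and 0 CPM in every tumour library, against 1.84, 1.35 and 1.9 CPM in wild type (edgeR adjusted p = 0.078). Nobox, a homeobox factor of the same stage, had 0.383 to 2.68 CPM in hyperplasia and 0.0975 to 0.794 CPM in tumours, against 3.42 to 5.81 CPM in wild type. Among the coat and secreted proteins, Zp2, of the egg coat, had 18.3, 4.49 and 0.431 CPM in hyperplasia and 0 in every tumour library, against 33.1, 29.3 and 35.9 CPM in wild type. Measured against the floor of 3 counts over the group, Zp2 was at least 407-fold lower in tumours. Gdf9, a growth factor by which the oocyte signals to granulosa cells, had 2.01 to 18.8 CPM in hyperplasia and 1.18 to 4.58 CPM in tumours, against 31.9 to 45.5 CPM in wild type. Hyperplasia library 1 held the most oocyte RNA of the C134W libraries for each of these 4 genes, and without it the pooled fit called 5 genes higher and 129 lower.

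Among the maternal proteins of the egg, Dppa3, which protects the maternal genome from demethylation, had 3.27, 1.01 and 0.335 CPM in hyperplasia and 0.0662, 0 and 0.084 CPM in tumours, against 17.2, 5.65 and 8.16 CPM in wild type (log2 fold change -5.08, edgeR adjusted p = 0.0715). Nlrp14 had 26.3, 5.94 and 0.527 CPM in hyperplasia and 0, 0 and 0.084 CPM in tumours, against 48.5, 47.6 and 62.9 CPM in wild type. Npm2, a chaperone of egg chromatin, had 0.192 to 3.75 CPM in hyperplasia and 0 to 0.132 CPM in tumours, against 7.66 to 12.2 CPM in wild type. The 3 tested members whose groups overlapped were Ooep, Tle6 and Gpr3. Tle6 had 17.5 to 18.3 CPM in hyperplasia and 14.6 to 60.7 CPM in tumours, against 30.0 to 42.3 CPM in wild type.

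Fat-cell markers had the next lowest median of any list with more than 2 tested genes, -4.39 over 9 tested genes of 10, from -2.27 in hyperplasia and -6.06 in tumours. With the 3 tested genes that had no counts in tumours set at their floor, these medians became -4.1 and, in tumours, -5.72. The summed level of the list was 233, 339 and 114 CPM in hyperplasia, against 258 to 295 CPM in wild type. Hyperplasia library 2 thus lay above every wild-type library, while the tumour libraries had 65.6 to 110 CPM. By edgeR 0 were called (smallest adjusted p 0.078), and DESeq2 called 5 lower, against 2.64% of all genes. In every C134W library 4 lay below wild type and 1 above, against 2.69% and 1.63% of all genes. As for the oocyte genes, the filter could keep members through wild type alone, so these counts support nothing. Car3, a carbonic anhydrase abundant in fat, had 14.8, 2.46 and 2.92 CPM in hyperplasia and 0.596, 0 and 1.34 CPM in tumours, against 47.6, 57.5 and 28.7 CPM in wild type. Adipoq, the fat-cell hormone adiponectin, had 2.94, 0.29 and 0.335 CPM in hyperplasia and 0 in every tumour library, against 9.65, 4.53 and 3.28 CPM in wild type. The member above wild type was Pparg, the regulator of fat-cell genes that granulosa cells also express, with 40.1 to 67.8 CPM in hyperplasia and 39.7 to 47.5 CPM in tumours, against 16.1 to 37.7 CPM in wild type.

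The fold changes of luteal and steroid genes lay further below 0 in tumours than in hyperplasia. All 10 luteal genes were tested, 10 had a negative fold change and 0 were called by edgeR (smallest adjusted p 0.0715), while DESeq2 called 5 lower, against 2.64% of all genes. Their median log2 fold change of -1.88 came from -0.41 in hyperplasia and -3.26 in tumours, and was -1.03 without wild-type library 1 and -0.99 without both libraries that stood apart. Ptgfr, the prostaglandin receptor through which the corpus luteum is broken down, had 291, 385 and 215 CPM in hyperplasia and 4.63, 6.24 and 4.62 CPM in tumours, against 991, 77.4 and 553 CPM in wild type. Its hyperplasia and wild-type values overlapped, and tumour minus hyperplasia was -5.85 (edgeR adjusted p = 0.0402). Of 14 tested genes of steroid synthesis, edgeR called 0 in the pooled comparison and DESeq2 called 1 lower (Cyp11a1), against 2.64% of all genes. Their median was -0.89, and -0.43 without wild-type library 1. Cyp11a1, which makes the first steroid from cholesterol, had 1960 to 6630 CPM in hyperplasia and 459 to 1040 CPM in tumours, against 5250 to 9570 CPM in wild type (log2 fold change -1.93, edgeR adjusted p = 0.103). Its hyperplasia and wild-type values overlapped as well. Star, which carries cholesterol into mitochondria, had 604 to 1900 CPM in hyperplasia and 198 to 342 CPM in tumours, against 717 to 1290 CPM in wild type.

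Among regulators and adhesion molecules, Eya4 and Opcml had the widest gaps on the higher side besides Cdh13. Eya4, a phosphatase and transcriptional co-activator, had 18.0, 8.48 and 31.5 CPM in hyperplasia and 31.4, 72.3 and 53.9 CPM in tumours, against 0.199, 1.71 and 1.38 CPM in wild type. Its log2 fold change was 4.87 (SE 0.74, edgeR adjusted p = 0.0715), 4.15 in hyperplasia and 5.59 in tumours, a difference of 1.44 that exceeds the limit for alike. Eya1 also lay above wild type on average (1.83), and Dach1, a transcriptional co-repressor, lay below in every C134W library (-0.75). Of the 7 tested genes of their list edgeR called 0 and DESeq2 called 1 higher (Eya4), against 1.01% of all genes. The median of that list was 0.41, and 0 without both libraries that stood apart. Opcml, an IgLON protein of the cell surface, had 9.1, 2.17 and 18.4 CPM in hyperplasia and 12, 78.1 and 21.8 CPM in tumours, against 0.249, 0.236 and 0.46 CPM in wild type. Its log2 fold change was 5.90 (SE 1.0, edgeR adjusted p = 0.078), and tumour library 2 was the highest. Of 12 tested IgLON and cadherin genes, Cdh13 was the 1 that edgeR called, while DESeq2 called Cdh13 and Opcml higher and Lsamp lower. Over all genes DESeq2 called 1.01% higher and 2.64% lower. The median was 0.23, and -0.01 without wild-type library 1. Lsamp, an IgLON relative of Opcml, had 2.64 to 10.3 CPM in hyperplasia and 1.27 to 2.32 CPM in tumours, against 6.32 to 12.2 CPM in wild type, and Cdh2, the main granulosa cadherin, had 62.2 to 69.6 CPM and 65.7 to 93.3 CPM, against 48.9 to 84.4 CPM in wild type.

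Of 16 tested matrix genes edgeR called 1 lower (Mfap4). DESeq2 called Mfap4 and Postn lower, against 2.64% of all genes called lower. On the lower side 3 had an unadjusted p under 0.05 (edgeR), against 7.88% of all genes. The median was 0.24, and it was -0.08 without wild-type library 1 and -0.42 without both libraries that stood apart. Postn, the matrix protein periostin, had 19.0 to 44.6 CPM in hyperplasia and 0.927 to 5.29 CPM in tumours, against a median of 84 CPM in wild type (log2 fold change -2.96, edgeR adjusted p = 0.089). Eln, the elastin that forms the core of elastic fibres, had 35.1 to 80.1 CPM in hyperplasia and 48.3 to 75.1 CPM in tumours, against 25.2 to 43.3 CPM in wild type (0.8, edgeR adjusted p = 0.345). Thus Mfap4 and Eln, both of elastic fibres, had fold changes of opposite sign. Fbn1, the microfibril protein fibrillin-1, had 216 to 450 CPM in hyperplasia and 185 to 367 CPM in tumours, against 51.6 to 421 CPM in wild type.

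Cell cycle genes had mostly negative fold changes in both lesion classes. Of 23 cell cycle genes 22 had negative fold changes, and the median was -0.77 (-0.96 in hyperplasia, -0.44 in tumours). On the lower side 7 had an unadjusted p under 0.05 (edgeR), against 7.88% of all genes. After adjustment edgeR called 0 (smallest adjusted p 0.174). DESeq2 called 1 lower (Ccnb1), against 2.64% of all genes called lower. Their summed level was 603 to 910 CPM in hyperplasia and 784, 1690 and 842 CPM in tumours, against 1090 to 1420 CPM in wild type, so tumour library 2 lay above every wild-type library. Ccnb1, the mitotic cyclin B1, had 5.32 to 13.9 CPM in hyperplasia and 5.56 to 22.3 CPM in tumours, against 30.6 to 36.2 CPM in wild type. Mki67, the marker Ki-67, had 21.6 to 83.3 CPM in hyperplasia and 41.5 to 86.4 CPM in tumours, against 53.8 to 137 CPM in wild type. Within tumours, library 2 had the highest Ccnb1. Of 13 CDK inhibitors and p53 targets edgeR and DESeq2 called 0, with a median of -0.18, which was 0.02 without wild-type library 1. Cdkn1b, the inhibitor p27, had 100 to 211 CPM in hyperplasia and 48.7 to 160 CPM in tumours, against 175 to 336 CPM in wild type.

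In the signalling lists edgeR called 0 genes. The list of TGF-beta, activin and BMP genes held 30 tested genes, with a median of -0.15. Among them DESeq2 called Smad3 higher and Id2 and Id4 lower, against 1.01% of all genes called higher and 2.64% lower. Smad3, the signal carrier that binds FOXL2 in human cells, had 79.8 to 179 CPM in hyperplasia and 173 to 238 CPM in tumours, against 57.3 to 94.0 CPM in wild type (log2 fold change 0.99, edgeR adjusted p = 0.207). Id4, an inhibitor of helix-loop-helix factors, had 8.2 to 18.8 CPM in hyperplasia and 1.07 to 1.6 CPM in tumours, against 8.85 to 17.6 CPM in wild type, and tumour minus hyperplasia was called at -3.17 (edgeR adjusted p = 0.0363). Medians were 0.07 over 19 Wnt genes, -0.19 over 14 Notch genes and 0.44 over 9 Hippo-YAP targets. They were 0.18 over 12 theca and hedgehog genes and -0.41 over 10 ovulation genes. By class the ovulation median was 0.4 in hyperplasia and -1.52 in tumours. Medians of the Wnt genes (0.13 and -0.09) and of the TGF-beta, activin and BMP genes (0.12 and -0.31) also differed in sign between the classes. Of these lists DESeq2 called 1 gene in Notch (Jag2) and 1 in ovulation (Runx2), both lower, against 2.64% of all genes. Without wild-type library 1 the Wnt median was -0.19, and without tumour library 2 the theca median was -0.01. Jag2, a Notch ligand, was below wild type in every C134W library, with 10.7 to 17.0 CPM in hyperplasia and 4.68 to 9.49 CPM in tumours, against 18.4 to 21.9 CPM in wild type.

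**Figure D4:**
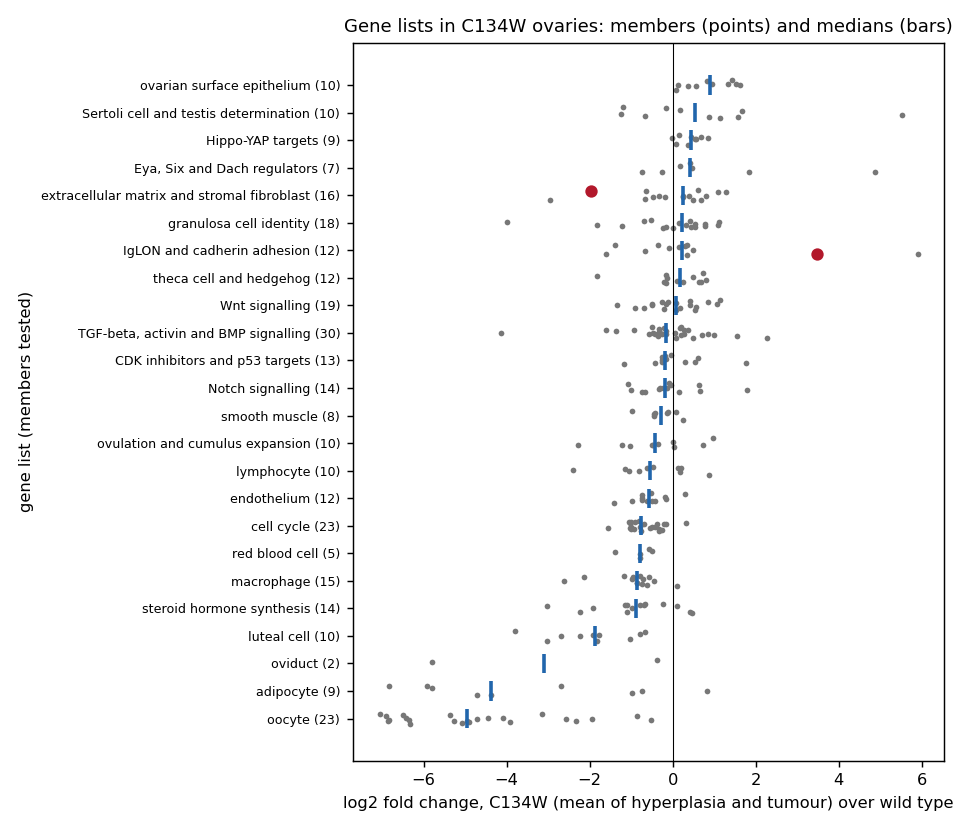
Log2 fold change, C134W over wild type (x axis), of every tested member of the 24 gene lists (y axis); points are genes, bars are list medians and red points are the called genes. The oocyte and adipocyte medians lie at -4.96 and -4.39, most others within 1 log2 unit of 0, and the called points are Cdh13 and Mfap4.

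Markers of other cell types differed between the libraries in ways that bear on a pooled comparison. Smooth muscle genes had a median of -0.27, made of 1.16 in hyperplasia and -1.75 in tumours, and their summed level was 2660 to 6360 CPM in hyperplasia and 420 to 1090 CPM in tumours, against 1200 to 2600 CPM in wild type. Of 15 macrophage genes 14 had negative fold changes (median -0.86, -0.24 in hyperplasia and -1.3 in tumours). On the lower side 7 had an unadjusted p under 0.05 (edgeR), against 7.88% of all genes. After adjustment edgeR called 0, while DESeq2 called Gpnmb and Itgam lower, against 2.64% of all genes called lower. Gpnmb, a glycoprotein of macrophages and other lysosome-rich cells, had 639, 291 and 143 CPM in hyperplasia and 1.59, 1.07 and 3.11 CPM in tumours, against 130, 135 and 223 CPM in wild type. Endothelial genes had a median of -0.56 (-0.22 in hyperplasia, -0.96 in tumours). Of these 12 genes 11 had negative fold changes. On the lower side 5 had an unadjusted p under 0.05 (edgeR), against 7.88% of all genes, and DESeq2 called 1, against 2.64%. Lymphocyte genes had a median of -0.55, made of 0.38 in hyperplasia and -1.04 in tumours. The pooled endothelial and lymphocyte medians were -0.35 and -0.18 without wild-type library 1. Without both libraries that stood apart they were -0.52 and 0.04. Surface epithelium markers summed to 304, 402 and 888 CPM in hyperplasia and 2070, 2.54 and 819 CPM in tumours, against 283 to 395 CPM in wild type, so tumour library 2 held almost none, with Muc16 at 0. Ovgp1, an oviduct secretory protein, had 0.803 to 1.09 CPM in hyperplasia and 0.0975 to 0.42 CPM in tumours, against 6.51, 81.3 and 1.32 CPM in wild type. Haemoglobin and Alas2 transcripts were highest in wild-type library 1 (Hbb-bs 544 CPM), and their list median of -0.78 became 0.65 without it. The part of these cell types in the fold changes of other genes was not tested.

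Promoter windows of RefSeq, from 250 bases before to 50 bases after the gene start on GRCm38.p6, were searched on both strands for the forkhead motif GTAAACA and the SMAD motif CAGACA, neither of which contains the other. Of the tested genes 11706 had a window, and 3.15% held the forkhead motif and 19.2% the SMAD motif. A gene with several windows counted once, as matched if any of them held the motif. Among genes with all C134W libraries above wild type, 8 of the 189 genes with a window (4.23%) held the forkhead motif and 43 (22.8%) the SMAD motif. Among those below, 9 of 313 (2.88%) held the forkhead motif and 79 (25.2%) the SMAD motif. The windows of Opcml (chr9:27791049-27791348, plus strand) and Lhx8 (chr3:154330511-154330810, minus strand) are printed 5′ to 3′ because these genes lay on opposite sides of wild type and each holds 1 SMAD match, in capitals, read on the opposite strand.
Opcml: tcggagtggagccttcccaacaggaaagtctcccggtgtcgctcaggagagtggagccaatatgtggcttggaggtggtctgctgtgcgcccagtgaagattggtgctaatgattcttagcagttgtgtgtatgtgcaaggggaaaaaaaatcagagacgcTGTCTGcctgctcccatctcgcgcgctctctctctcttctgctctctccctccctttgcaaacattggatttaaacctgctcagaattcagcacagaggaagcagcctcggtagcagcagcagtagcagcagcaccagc
Lhx8: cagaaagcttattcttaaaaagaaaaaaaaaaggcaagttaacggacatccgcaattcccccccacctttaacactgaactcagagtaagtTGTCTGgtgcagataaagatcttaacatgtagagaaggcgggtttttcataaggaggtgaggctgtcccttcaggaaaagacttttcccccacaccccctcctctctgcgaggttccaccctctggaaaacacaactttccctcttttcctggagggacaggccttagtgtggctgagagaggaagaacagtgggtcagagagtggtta
The matches begin 89 bases before the start of Opcml and 159 bases before the start of Lhx8, and a match is a description of the letters, not a bound site. Matched windows were thus found on both sides of wild type, at shares that were not tested.

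The number of calls depended on the method and on single libraries more than the fold changes did. Against the 2 calls with all libraries, edgeR called 0 without wild-type library 1 but 5 higher and 129 lower without hyperplasia library 1. Limma-voom called 198 genes and limma on log2(TPM + 1) called 77, and both sets held Cdh13 and Mfap4. Comparing all 6 C134W libraries with wild type as 2 groups, which puts the difference between lesion classes into the spread, left 1 call, Cdh13. A term for the title stem shared by hyperplasia library 3 and tumour library 3 left 0 (Cdh13 adjusted p = 0.0919, edgeR).

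**Figure D5:**
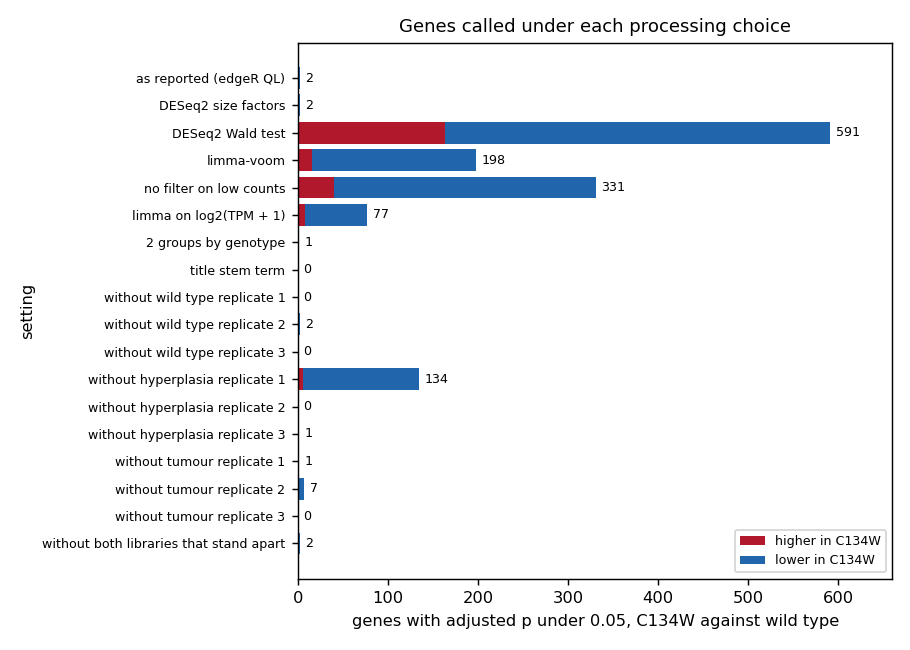
Genes called in C134W against wild type (x axis) under each setting (y axis), including each library left out. The bars reach 591 for the DESeq2 Wald test, 331 without a filter on low counts and 198 for limma-voom, against 2 in the fit described above.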

How the data were processed

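Ovary RNA from 9 libraries was sequenced, 3 each of hyperplasia, tumour and wild type. Trizol extraction and the stranded TruSeq mRNA kit are given per the labels' protocols. RSEM 1.3.1, STAR 2.7.1a, Picard 2.8.1, FastQC and the build GRCm38 stand in the submitters' processing notes without roles. The sources used here give no strand setting.

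The authors deposited RSEM tables per sample. Their expected counts are not normalised, per the file headers and values, and 25.6% of those above 0 are not whole, since RSEM shares reads between genes. TPM, which the authors scaled for length and depth, entered 1 alternative. FPKM, also deposited, entered no test. All 55536 gene identifiers were named from GENCODE M21.

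Expected counts were rounded and scaled by TMM (factors 0.797 to 1.078). The filter filterByExpr (count minimum 10, total minimum 15) kept 16213 genes. edgeR 4.0.16 (R 4.3.3) fitted 1 quasi-likelihood model to the 3 groups, and the mean of both lesion groups was set against wild type. P-values were adjusted over all genes by Benjamini and Hochberg, with a threshold of 0.05. Median standard errors were 0.33 (log2) for C134W and 0.38 for the other comparisons, and the common biological coefficient of variation was 0.43. The fits were tested on simulated data. No 2 libraries agreed within sampling noise (smallest chi-square per degree of freedom 26.5). The closest pair was wild-type library 2 and hyperplasia library 2, which differ in genotype. Hyperplasia library 3 and tumour library 3, of the shared title stem, had 31.4. Pairs within a group had 44.5 to 224. The cause was not tested. Intervals are 95%, and floors cover counting error only.

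Genes were named by a rule: Foxl2, up to 14 called genes per direction with a mean of at least 1 CPM and no overlap, and up to 4 members of each of 24 lists by smallest adjusted p. The members, lists and rule were chosen with earlier results of these data known. Genes outside the rule, including the leading genes, those near the threshold and list members beyond 4, were chosen after their values were seen. Of the leading genes, 1 on the lower side is not reported here. Alternatives were DESeq2 1.42.0 (size factors and Wald test, which left 113 adjusted p undefined), limma-voom (limma 3.58.1), no filter, limma on log2(TPM + 1) with a mean of at least 1 TPM, 2 groups by genotype, a title stem term, other limits for alike, and each library left out.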

Additional observations from a re-analysis of the deposited data

Results flagged for a closer look

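Among 116 genes examined, 9 had 1 of the 6 C134W libraries apart from the other 5, by a gap to the nearest of them that exceeded Dixon's 95% critical value in log2(CPM + 0.5), which chance does in about 1 of 20 groups. Tumour library 2 was the library apart for 6 of them. It was high for Insl3, the hormone of theca cells (10.5 CPM), for the hedgehog factor Gli2 (66.1 CPM) and for the Wnt regulator Dkk3 (305 CPM). It was low for the Wnt factor Tcf7 (9.56 CPM) and for the surface epithelium genes Krt19 and Upk3b (0.0975 CPM each). Hyperplasia library 1 was high for the fat-cell genes Cidec (1.39 CPM) and Adipoq (2.94 CPM). Hyperplasia library 2 was low for Sox8, a relative of Sox9 (0.869 CPM).

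Tumours differed from hyperplasia for 4 of the named genes, by a direct test of that difference with edgeR's quasi-likelihood method. The log2 difference was -5.85 for the prostaglandin receptor Ptgfr (adjusted p = 0.0402) and -3.17 for Id4 (adjusted p = 0.0363). It was -7.53 for Gpnmb (adjusted p = 0.011) and -2.05 for Ptprc, the leukocyte antigen CD45 (adjusted p = 0.0363). Over all genes this comparison gave 30 calls, but 12 with the title stem term, 0 without tumour library 3 and 0 without both libraries that stood apart. For these genes the value pooled over C134W is the mean of unlike classes. Ptprc had 38.2, 23.8 and 22.7 CPM in hyperplasia and 6.42, 6.83 and 7.14 CPM in tumours, against 18.5, 23.8 and 21.6 CPM in wild type.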

How the results depend on the processing

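Counts of called genes are for C134W against wild type unless stated. In place of 2 calls there were 591 by the DESeq2 Wald test, 198 by limma-voom, 331 with no filter on low counts, 77 by limma on log2(TPM + 1), 1 with 2 groups by genotype, 0 with the title stem term, and 0 to 1.3e+02 with a library left out (the highest, 5 higher and 129 lower, without hyperplasia library 1). DESeq2 size factors gave 2, and without wild-type library 1 and tumour library 2 there were also 2, neither of them Cdh13 or Mfap4. Genes changed alike numbered 87 by DESeq2, 25 by voom, 33 with no filter, 28 in TPM, 0 with the stem term, 2 without both libraries, 0 to 24 with 1 left out, and 2 when the lesion classes could differ by 2 log2 units or by any amount.

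Calls among listed genes, 2 at first, were 47 by DESeq2, 26 by voom, 38 with no filter, 17 in TPM, 1 by genotype, 0 with the stem term, 0 without both libraries and 0 to 25 with 1 left out. Hyperplasia against wild type gave 0 calls, against 19 by DESeq2, 2 with no filter, 1 in TPM, 2 without both libraries and 0 to 3 with 1 left out. Tumour against wild type gave 259, against 1747 by DESeq2, 721 with no filter, 0 with the stem term, 8 without both libraries and 0 to 404 with 1 left out. Tumour against hyperplasia gave 30, against 816 by DESeq2, 4 by voom, 199 with no filter, 58 in TPM, 12 with the stem term, 0 without both libraries and 0 to 128 with 1 left out. The cause was not tested.

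Directions turned (log2) for uncalled genes. With 1 library left out they ran from -0.65 to 0.1 for Phlda3, -0.68 to 0.52 for Cfap126, -2.69 to 0.65 for Hbb-bt, -1.87 to 0.41 for Hba-a1, -1.97 to 1.05 for Hbb-bs and -1.62 to 0.38 for Alas2, positive without wild-type library 1, and from -0.89 to 0.05 for Actg2, positive without wild-type library 2. Without both libraries they became 0.03 for Tagln and 0.37 for Cfap126. By genotype they became 0.28 for Tagln, 0.35 for Actg2 and 0.15 for Gpnmb, and by voom -0.11 for Krt19 and -0.17 for Upk3b. Foxl2 stayed uncalled and positive, from 0.17 to 0.71. No paired analysis was possible because the labels give the groups no shared replicate numbers; the shared title stem joins only hyperplasia library 3 and tumour library 3, and the term for it is the fit given above. At the depth of these libraries, levels under 0.144 to 0.293 CPM rest on fewer than 3 counts.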
